A study of Lupinus albus with 12 samples.

Results

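Malate synthase and isocitrate lyase are the 2 enzymes that set the glyoxylate cycle apart from the citric acid cycle. Their transcripts were followed in white lupin (Lupinus albus var. Ultra), a legume that forms dense clusters of short rootlets, called proteoid roots, when phosphorus is scarce. Members were the sequences whose deposited description holds the words malate synthase or isocitrate lyase, or the symbols MLS or ICL, and that reached at least 1 RPKM (reads corrected for sequence length and for the reads in a library) in at least 3 of the 12 libraries. Of 125535 sequences in the deposited table, 20 matched and 12 of these reached that level, among 87081 sequences that did so in all. The words also take in 2-isopropylmalate synthase, an enzyme of leucine synthesis and not of the glyoxylate cycle, with 9 matches of which 7 passed. Malate synthase itself had 6 matches of which 4 passed, and isocitrate lyase had 5 matches of which 1 passed. The pair was chosen by the root values of malate synthase, whose higher level in phosphorus-deficient roots was already known, so the root levels of malate synthase and isocitrate lyase are given as a description, with no test.

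The 12 libraries form 4 groups of 3 biological replicates each: sufficient roots, deficient roots, sufficient leaves and deficient leaves. All plants were of the variety Ultra, grown in a chamber with a 16 h photoperiod at 20 °C by day and 15 °C by night and harvested 14 days after emergence. The supply was 1 mM calcium phosphate for sufficient plants and 1 mM calcium sulfate for deficient ones. The labels name the tissue of deficient roots proteoid roots, so root type and phosphorus supply cannot be told apart in the root comparison. One field of the labels speaks of soil and another of solutions, and the labels do not say how many plants made up a replicate. In RNA from whole tissue, more cells of a type and more RNA per cell cannot be told apart.

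The glyoxylate cycle turns acetyl-CoA, which comes largely from fatty acid breakdown, into four-carbon acids. Isocitrate lyase splits isocitrate into succinate and glyoxylate, and malate synthase joins glyoxylate to a further acetyl-CoA to give malate. In plants the pair is best known from oil-storing seeds, where it lets stored fat be turned into sugar after germination, and from ageing leaves. Proteoid roots of white lupin are known for releasing malate and citrate, which free phosphate bound in soil.

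The tissue labels were checked against marker transcripts. Sequences for light-harvesting proteins and the small subunit of RuBisCO, 67 in number, summed to 107.4 to 183.2 RPKM in the root libraries and to 27208.0 to 123936.1 RPKM in the leaf libraries, and 22 of them were listed at 0 in all root libraries. Root hair, endodermis and root cap sequences, 118 in number, summed to 292.8 to 350.4 RPKM in roots and to 89.7 to 251.7 RPKM in leaves. Deficient leaf replicate 3 was unlike the other leaf libraries, with 70.91% of its summed RPKM in its 20 most abundant sequences, against 12.51% to 17.98% in the others. Each replicate 1 library had a lane to itself and no barcode, whereas lanes for replicates 2 and 3 held 2 barcoded libraries.

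Four-carbon acid formation from glyoxylate was represented in roots by 4 malate synthase sequences. All 4 were found in every root library and were near 0 in leaves, and all 4 stood higher in deficient than in sufficient roots. The most abundant, LAGI01_27673, stood at 12.2, 29.5 and 21.7 RPKM in sufficient roots of replicates 1, 2 and 3 and at 128.0, 254.3 and 210.7 RPKM in deficient roots. The lowest deficient library was 4.34 times the highest sufficient one. Its mean was 21.1 ± 8.66 RPKM (SD, n = 3) with sufficient phosphorus and 198 ± 64.2 RPKM (SD, n = 3) without, a ratio of 9.35. On the scale of log2(RPKM + 0.5), the difference between the groups was 3.23 with a standard error of 0.395.

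LAGI01_77756 had the largest difference of the 4. It stood at 7.5, 13.8 and 7.5 RPKM in sufficient roots and at 87.9, 146.5 and 117.9 RPKM in deficient roots. Its lowest deficient library was 6.37 times its highest sufficient one, the ratio of the means was 12.2, and the difference on the log2 scale was 3.57 with a standard error of 0.344.

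The remaining pair was less abundant. LAGI01_63274 stood at 5.4, 11.3 and 7.4 RPKM in sufficient roots and at 55.3, 89.2 and 59.5 RPKM in deficient roots, a log2 difference of 3.03 with a standard error of 0.344. LAGI01_69392 stood at 5.1, 7.6 and 5.9 RPKM in sufficient roots and at 46.8, 69.9 and 54.7 RPKM in deficient roots, a log2 difference of 3.10 with a standard error of 0.311. Neither sequence had a library of one group within the range of the other.

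**Figure D1:**
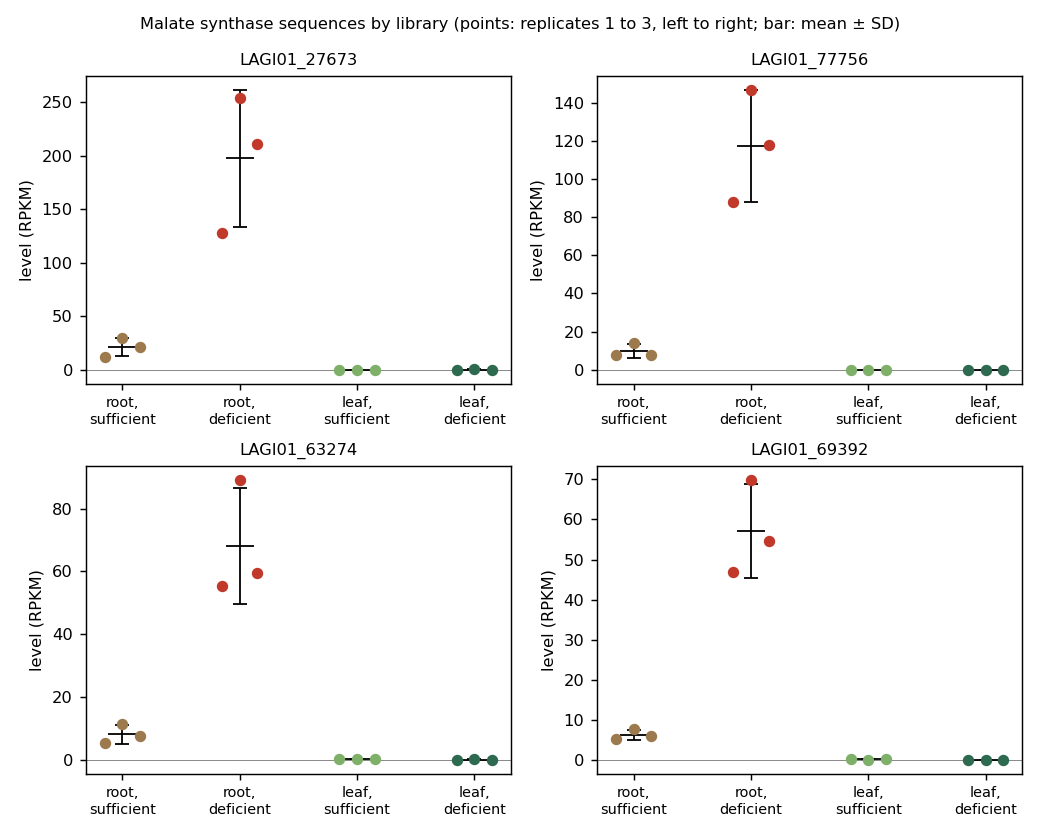
RPKM of the 4 malate synthase sequences in each of the 12 libraries, by tissue and phosphorus supply. Each point is 1 library, with the mean and SD of 3 libraries in black. The deficient roots lie between 46.8 and 254.3 RPKM, above the sufficient roots at 5.1 to 29.5 RPKM, and no leaf library exceeds 0.2 RPKM.

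Within each replicate number the direction was the same for all 4. The ratio of deficient to sufficient roots for LAGI01_27673 was 10.5 in replicate 1, which was sequenced without barcodes, and 8.62 and 9.71 in the barcoded replicates 2 and 3. For LAGI01_77756 the ratios were 11.7, 10.6 and 15.7. For LAGI01_69392 they lay between 9.18 and 9.27, the narrowest range of the 4. With the barcoded libraries alone the log2 differences were 2.93 to 3.62.

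Summed over the 4 sequences, malate synthase stood at 30.2, 62.2 and 42.5 RPKM in sufficient roots and at 318.0, 559.9 and 442.8 RPKM in deficient roots. The means were 45.0 ± 16.1 and 440 ± 121 RPKM (SD, n = 3 each), a ratio of 9.79. In both groups replicate 2 was the highest and replicate 1 the lowest. Among the 87081 sequences tested, the root differences of the 4 ranked 47th, 64th, 67th and 68th from the highest, where 243 sequences (0.279%) passed the test. These ranks describe how the set was noticed and support nothing further. In deficient roots LAGI01_27673 had a higher mean level than 99.63% of the sequences tested, against 92.04% in sufficient roots.

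The 4 sequences had the same order of abundance in all 6 root libraries. LAGI01_27673 was the highest, and LAGI01_77756 stood at 0.346 to 0.687 of its level. LAGI01_63274 stood at 0.282 to 0.443 of that level and LAGI01_69392 at 0.258 to 0.418. Which of the 4 are separate genes and which are pieces or near-identical copies of one gene is not known from the deposited annotation, and the division of reads between them is uncertain. The 4 carry the same best hit and are therefore not independent of each other.

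In leaves malate synthase was at the limit of the table. LAGI01_77756 was listed at 0 in all 6 leaf libraries, and the other 3 never exceeded 0.2 RPKM. The 4 sequences summed to 0.2 RPKM in each of the 3 sufficient leaf libraries and to 0.0, 0.3 and 0.1 RPKM in the deficient ones. Limma, which was fitted to all sequences tested, called none of the 4 in leaves at a Benjamini-Hochberg adjusted p below 0.05 (adjusted p 0.93 to 1.0, none at an unadjusted p below 0.05), where 24 of all sequences tested (0.0276%) were called. At levels this low the fitted differences depend on the pseudocount and are not read as changes.

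The partner enzyme, isocitrate lyase, had 1 sequence found in leaves and 4 low ones found in roots. The leaf sequence, LAGI01_21907, was the one that passed the filter, through leaf libraries alone, and was listed at 0 in all 6 root libraries, the tissue in which malate synthase was found. In leaves it stood at 5.4, 5.9 and 6.8 RPKM with sufficient phosphorus and at 3.7, 3.2 and 0.5 RPKM without. Every deficient leaf library was below every sufficient one, and the lowest was replicate 3. The share of all sequences tested whose leaf groups lay apart in this way was not counted, so this is a description only.

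The leaf means of LAGI01_21907 were 6.03 ± 0.709 and 2.47 ± 1.72 RPKM (SD, n = 3 each). The difference on the log2 scale was -1.38 with a standard error of 0.437, and limma gave an adjusted p of 0.369 (unadjusted 0.00578), so it did not pass the threshold. The median change of all sequences tested in leaves was -0.24 on the same scale. An exact two-sided permutation test over the libraries gave p = 0.1, the smallest value that 3 against 3 samples allow. Without deficient leaf replicate 3 the difference was -0.72. With the barcoded libraries alone it was -1.83 at a limma adjusted p of 0.0153, a fit in which 5215 of all sequences passed. That fit kept only replicates 2 and 3 of each group, so it leaned more on deficient leaf replicate 3, which was unlike the other leaf libraries. The adjusted p ran from 0.0153 to 1.0 over all alternatives. After median-of-ratios scaling the leaf levels were 5.33, 5.74 and 6.97 with sufficient phosphorus and 3.72, 2.62 and 1.15 without.

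The other 4 isocitrate lyase sequences were below the filter and were not tested. All were listed at 0 in leaves and in both root libraries of replicate 1. LAGI01_67454 stood at 0.7 and 3.9 RPKM in sufficient roots of replicates 2 and 3 and at 0.6 and 0.9 RPKM in deficient roots. LAGI01_115039 stood at 0.9 and 2.0 RPKM in those sufficient roots and at 0 in all deficient ones. LAGI01_73340 and LAGI01_99554 had 0.6 to 3.4 RPKM in the same sufficient libraries and 0.2 to 0.9 RPKM in the deficient ones. The deposited annotation calls LAGI01_99554 nearly identical to a soybean isocitrate lyase.

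Summed over all 5 sequences, isocitrate lyase in roots came to 0.0, 3.0 and 12.7 RPKM with sufficient phosphorus and to 0.0, 2.0 and 1.6 RPKM without. In deficient roots the sums were 318.0 to 559.9 RPKM for the 4 abundant malate synthase sequences and at most 2.0 RPKM for isocitrate lyase. The 4 may be pieces or copies of 1 gene, and malate synthase was chosen by these values. The isocitrate lyase sums in roots rest on sequences below the filter. The sums are thus no measure of the ratio between the enzymes. The largest isocitrate lyase sum in roots came from a single sufficient library, replicate 3.

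**Figure D2:**
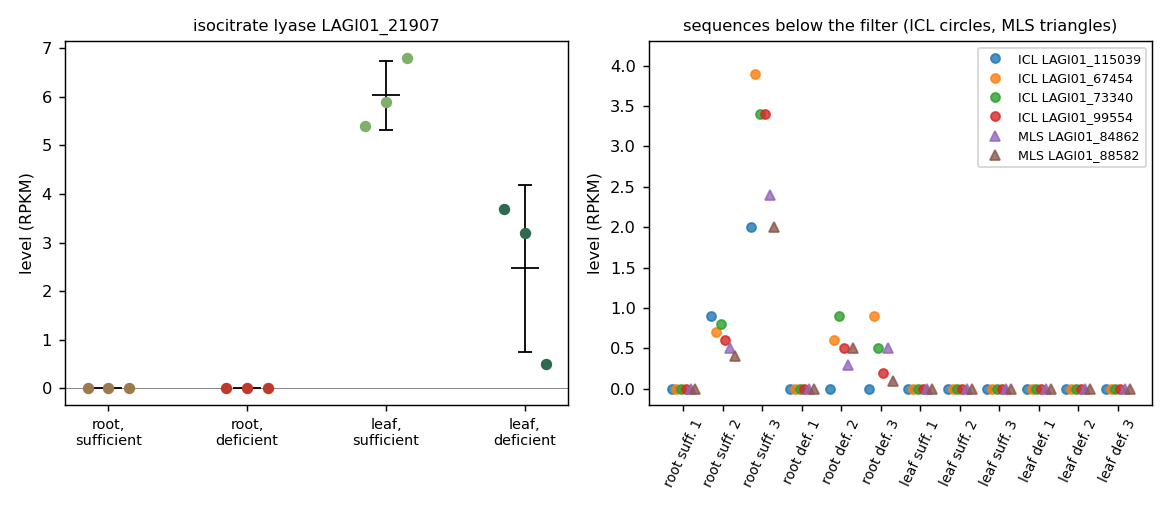
RPKM of isocitrate lyase LAGI01_21907, and of the isocitrate lyase and malate synthase sequences that did not pass the filter, in each of the 12 libraries. Each point is 1 library, and the black bars are the mean and SD of 3 libraries. LAGI01_21907 is at 0 in roots and lower in all 3 deficient than in all 3 sufficient leaf libraries, while the low sequences appear only in root replicates 2 and 3 and reach 3.9 RPKM.

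The 2 malate synthase sequences below the filter followed the low isocitrate lyase sequences and not the abundant malate synthases. LAGI01_84862 stood at 0.0, 0.5 and 2.4 RPKM in sufficient roots and at 0.0, 0.3 and 0.5 RPKM in deficient roots. LAGI01_88582 stood at 0.0, 0.4 and 2.0 RPKM and at 0.0, 0.5 and 0.1 RPKM. Both were at 0 in leaves. At the filter itself, LAGI01_21907 and 2 isopropylmalate synthases lay just inside with 5 libraries at 1 RPKM or more, and the isopropylmalate synthases LAGI01_88060 and LAGI01_91619 lay just outside with 2.

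Malate synthase uses acetyl-CoA, and the peroxisome route that supplies acetyl-CoA and the enzymes that share the cycle's other steps were described from 7 lists of descriptions. Together they held 664 tested sequences. Limma called 0 of these in roots and 0 in leaves, against 0.279% and 0.0276% called among all sequences. At an unadjusted p below 0.05 there were 23 in roots (3.46%) and 40 in leaves (6.02%), against 4.31% and 7.76% of all sequences tested. The lists were not alike in leaves, as 13 of the 40 were among the 62 tested sequences of storage lipid mobilisation. Leaf changes in that list ran from -2.93 to 1.34, with a median of -0.30. The root differences of these sequences ranged from -1.81 to 1.81 on the log2 scale. As malate synthase was chosen by its root values, its larger difference follows from that choice and is no result of this comparison. The median root change was 0.00 for 173 sequences of the list meant for citrate synthase, aconitase and malate dehydrogenase. By enzyme it was -0.053 for 20 of citrate synthase, 0.134 for 18 of aconitase and 0.185 for 40 of malate dehydrogenase. The pattern also took in malic enzymes (45, median -0.065), ATP citrate lyases (37, median -0.13) and 3-isopropylmalate dehydrogenases (13, median 0.107). The median root change was 0.08 for 178 sequences of beta-oxidation and acetyl-CoA supply. It was 0.01 for 62 of storage lipid mobilisation, 0.08 for 37 of gluconeogenesis, 0.10 for 131 of peroxisome biogenesis and catalase, 0.35 for 36 of succinate use and 0.40 for 47 of photorespiratory glyoxylate enzymes, against 0.0 for all sequences tested.

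**Figure D3:**
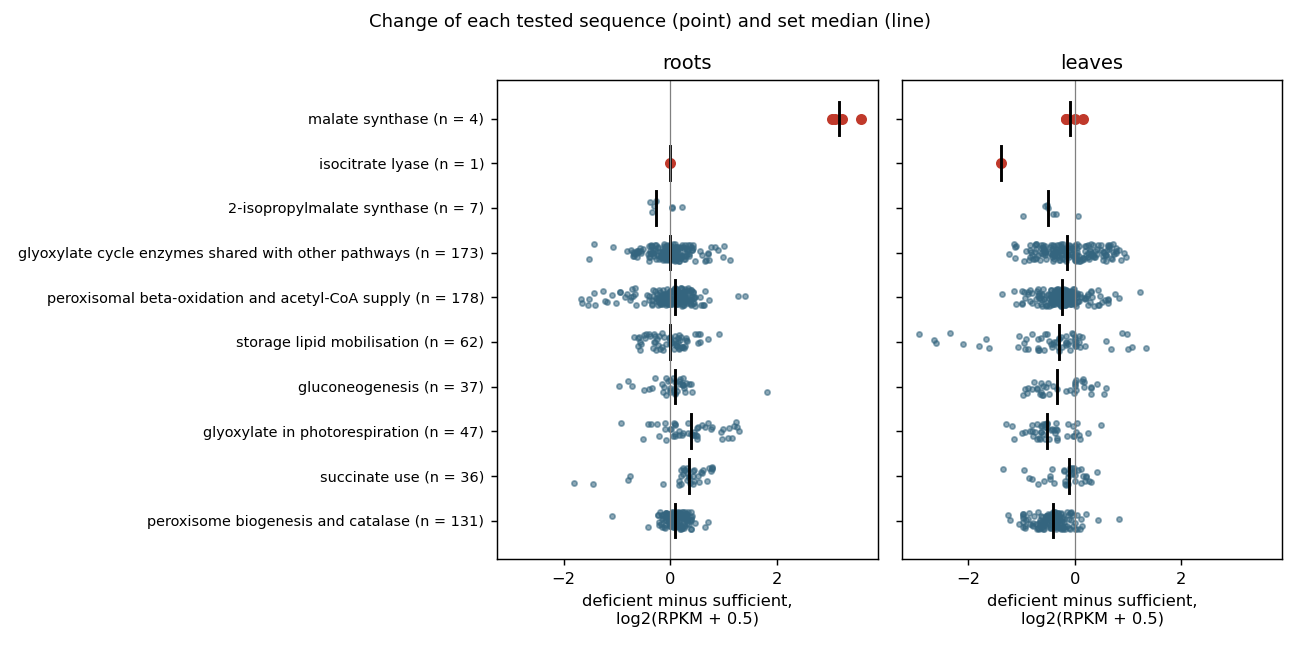
Change from sufficient to deficient phosphorus on the scale of log2(RPKM + 0.5), in roots on the left and leaves on the right, for each tested sequence (points) of the enzymes and pathway lists, with the median of each as a vertical line. The 4 malate synthases, which were chosen by their root values, lie at 3.03 to 3.57 in roots, and the pathway lists at -1.81 to 1.81.

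Root sums of 3 enzymes of the cycle overlapped between the groups. Peroxisomal citrate synthase (CSY2 and CSY3), which makes the citrate of the cycle from acetyl-CoA, summed over 11 sequences to 67.2 to 74.7 RPKM in sufficient roots and 59.5 to 70.0 RPKM in deficient roots. Aconitase, which turns citrate into isocitrate, summed over 20 sequences, of which 18 were tested, to 379.8 to 523.2 and 468.0 to 548.8 RPKM. Peroxisomal malate dehydrogenase (PMDH1 and PMDH2), which reoxidises malate, summed over 8 sequences, of which 7 were tested, to 26.7 to 36.0 and 30.9 to 42.9 RPKM. Among these 3 enzymes no sequence reached an unadjusted p below 0.05 in roots.

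Cytosolic malate dehydrogenase, which interconverts malate and oxaloacetate outside the organelles, summed over 12 sequences to 510.5 to 614.3 RPKM in sufficient roots and 679.8 to 762.4 RPKM in deficient roots. Limma called 0 of the 10 tested, with 2 at an unadjusted p below 0.05, against 4.31% of all sequences tested in roots. LAGI01_31867 stood at 114.3, 88.7 and 79.3 RPKM in sufficient roots and at 206.3, 197.8 and 201.8 RPKM in deficient roots. The log2 difference of 1.11 (standard error 0.425) did not pass in limma, with an adjusted p of 0.807. The low sequence LAGI01_97630 of the same description had 0.0, 2.2 and 1.7 RPKM in sufficient roots and 0 in deficient roots, at an adjusted p of 1.0.

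Acetate-CoA ligase AAE7, called ACN1 in Arabidopsis, where it activates acetate in the peroxisome for the glyoxylate cycle, had 4 tested sequences. LAGI01_21073 stood at 5.2, 3.8 and 3.1 RPKM in sufficient roots and at 12.1, 12.6 and 9.5 RPKM in deficient roots. The log2 difference was 1.41 with a standard error of 0.468. Its limma adjusted p was 0.552. It passed in 2 alternatives, with an adjusted p of 0.0345 after median-of-ratios scaling and 0.041 without deficient leaf replicate 3. The second sequence, LAGI01_19289, stood at 6.0, 3.3 and 3.5 RPKM and at 11.7, 10.8 and 9.7 RPKM (log2 difference 1.28, adjusted p 0.736), and the other 2 differed by 0.38 and 0.28.

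Fatty acid breakdown leads to the acetyl-CoA that the cycle uses. The importer PXA1, which brings fatty acids into the peroxisome, summed over 13 sequences to 25.9 to 35.3 RPKM in sufficient roots and 29.4 to 43.3 RPKM in deficient roots. Acyl-CoA oxidase, the first step of peroxisomal beta-oxidation, summed over 45 sequences to 621.7 to 872.4 and 299.1 to 699.7 RPKM. Of the 44 tested, 0 were called by limma, with 6 at an unadjusted p below 0.05, against 4.31% of all sequences tested. Its member ACX1 LAGI01_55790 stood at 22.0, 32.4 and 30.7 RPKM in sufficient roots and at 2.4, 20.2 and 15.2 RPKM in deficient roots, a log2 difference of -1.54 (adjusted p 0.709) that was -0.66 without deficient root replicate 1. Thiolase PKT3, also called KAT2, which releases the acetyl-CoA, summed over 10 sequences to 133.6 to 189.9 and 195.1 to 225.2 RPKM, with no sequence at an unadjusted p below 0.05.

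PEP carboxykinase, which leads carbon from oxaloacetate towards sugar, had 21 tested sequences that differed in direction. PCK1 LAGI01_80439 stood at 0.0, 0.1 and 0.2 RPKM in sufficient roots and at 3.3, 1.1 and 1.0 RPKM in deficient roots, with a log2 difference of 1.81 and an adjusted p of 0.124. It passed the filter through the 3 deficient root libraries alone, so the filter favoured a higher value there. PCK1 LAGI01_16870 stood at 4.2, 3.1 and 2.9 RPKM and at 1.7, 1.9 and 1.0 RPKM, with a log2 difference of -0.95 and an adjusted p of 0.632. Neither passed in limma.

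Glyoxylate, the substrate of malate synthase, is also used by aminotransferases. The alanine-glyoxylate aminotransferases of the AGT2 and AGT3 type summed over 10 sequences to 70.3 to 88.4 RPKM in sufficient roots and 119.0 to 183.2 RPKM in deficient roots. Limma called 0 of the 7 tested, with 4 at an unadjusted p below 0.05, against 4.31% of all sequences tested in roots. LAGI01_25695 stood at 21.8, 16.8 and 22.6 RPKM and at 71.0, 45.6 and 38.7 RPKM, a log2 difference of 1.29 with a standard error of 0.398. Its limma adjusted p was 0.429, and 0.0345 after median-of-ratios scaling. AGT3 LAGI01_56218 stood at 4.2, 3.0 and 3.5 RPKM and at 15.5, 6.6 and 5.1 RPKM, with a log2 difference of 1.09, an adjusted p of 0.639 and a difference of 0.64 without deficient root replicate 1.

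Succinate, the other product of isocitrate lyase, is oxidised by succinate dehydrogenase. Its 30 sequences summed to 334.3 to 447.2 RPKM in sufficient roots and 529.0 to 544.2 RPKM in deficient roots. Limma called 0 of the 29 tested, with 1 at an unadjusted p below 0.05, against 4.31% of all sequences tested in roots. The subunit sequences SDH1-2 LAGI01_82778 and SDH1-1 LAGI01_82099 had up to 5.0 RPKM in sufficient roots and up to 0.8 RPKM in deficient roots (adjusted p 1.0 each), and both were at 0 in replicate 1. Both passed the filter through sufficient libraries alone, so the filter favoured a lower value with deficient phosphorus. For the organelle itself, catalase summed over 13 sequences to 118.4 to 157.7 and 130.2 to 171.6 RPKM, and the peroxisomal import receptor PEX7 LAGI01_42678 stood at 4.9, 3.2 and 2.7 RPKM and at 7.0, 6.2 and 4.4 RPKM (adjusted p 1.0). CAT2 LAGI01_94019 stood at 1.3, 0.7 and 0.9 RPKM and at 0.2, 0.0 and 0.4 RPKM (log2 difference -1.09, adjusted p 0.887).

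In the leaves, where isocitrate lyase LAGI01_21907 was found, the smallest p of the 7 lists belonged to EDS1 LAGI01_20757. EDS1 is a lipase-like regulator of plant immunity that the word triacylglycerol lipase brought into the storage lipid list. It stood at 2.5, 6.7 and 7.6 RPKM in sufficient leaves and at 0.9, 0.7 and 0.3 RPKM in deficient leaves, a log2 difference of -2.34 with a standard error of 0.399 and a limma adjusted p of 0.0579. It passed in 5 of 19 alternatives, with an adjusted p of 0.024 when the replicate number was a block and a range of 2.5e-05 to 0.912 over all 19. In that blocked fit 4 sequences of the storage lipid list were called in leaves, beside 158 of all sequences. The photorespiratory enzyme hydroxypyruvate reductase, HPR LAGI01_89374, stood at 15.9, 11.6 and 18.7 RPKM and at 12.3, 7.1 and 2.2 RPKM (log2 difference -1.29, adjusted p 0.465), and its difference was -0.66 without deficient leaf replicate 3.

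Oil-storing seeds and ageing leaves are the known settings of the enzyme pair, and sequences of both were counted. Of 94 tested seed storage, oil body and late embryogenesis sequences, limma called 0 in roots, with 4 at an unadjusted p below 0.05. With the low ones included, 114 such sequences summed to 2842.9 to 5111.7 RPKM in sufficient and 2671.7 to 5251.5 RPKM in deficient roots, and 4 of them were at 0 in all root libraries. Of 135 tested senescence sequences, 0 were called in roots, with 5 at an unadjusted p below 0.05, and the sums over 139 sequences were 1578.3 to 2188.6 and 1425.9 to 2437.3 RPKM. The 9 tested nodule sequences summed to 632.4 to 1920.8 and 152.4 to 2005.2 RPKM, with 0 called and 2 at an unadjusted p below 0.05. Among all sequences tested in roots, limma called 0.279%, and 4.31% had an unadjusted p below 0.05. In all 3 lists the root sums of the groups overlapped. In leaves limma called 0 of the tested sequences of each list. At an unadjusted p below 0.05 it had 16 of 94 seed sequences, 10 of 135 senescence sequences and 0 of 9 nodule sequences there, beside 12 of 63 light-harvesting and RuBisCO sequences and 7.76% of all sequences tested. The median leaf change was -0.01 for the seed list, -0.26 for the senescence list and -0.71 for the light-harvesting and RuBisCO list, against -0.24 for all sequences. With barcoded libraries alone 14 of 94, 10 of 135 and 6 of 63 sequences of these 3 lists were called in leaves. In that fit 5215 of all 87081 sequences were called, so such calls were common. Their part in the lower leaf level of isocitrate lyase LAGI01_21907 was not tested.

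The sequences whose profile over the 12 libraries was most like that of malate synthase were found by Pearson's r on the log2 scale, among sequences with an informative description and at least 5 RPKM in their highest group. The 10 highest had r of 0.993 to 0.998, and 37 of all sequences tested, the malate synthases themselves included, were above 0.99. Over the 6 root libraries alone, r for the 10 was 0.952 to 0.997. The points share the difference between root and leaf, so r is a description and carries no p. Isocitrate lyase LAGI01_21907 had r of -0.84 with the same profile.

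Both sequences with the largest root difference among the 10 were multicopper oxidases of the low phosphate root family, known in Arabidopsis for their part in the root growth response to low phosphate. LPR1 LAGI01_52976 stood at 5.9, 10.1 and 11.8 RPKM in sufficient roots and at 158.7, 223.3 and 292.5 RPKM in deficient roots. LPR2 LAGI01_46294 stood at 8.2, 11.5 and 11.2 RPKM and at 164.6, 194.1 and 187.2 RPKM. Neither exceeded 0.1 RPKM in any leaf library.

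PEP carboxylase ATPPC1 LAGI01_66206, an enzyme that makes oxaloacetate, the precursor of malate, stood at 4.8, 4.0 and 5.3 RPKM in sufficient roots and at 13.4, 26.4 and 19.3 RPKM in deficient roots. FRU LAGI01_31032, known in Arabidopsis as a regulator of iron uptake, stood at 1.9, 3.0 and 3.8 RPKM and at 10.4, 20.6 and 16.3 RPKM. The xyloglucan transferase LAGI01_64378, of a family that remodels cell walls, had the highest r and stood at 2.9, 4.7 and 3.0 RPKM and at 11.1, 23.4 and 14.9 RPKM. All 3 were higher in each deficient root library than in each sufficient one and at or below 0.1 RPKM in leaves.

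The other 5 were LPP2 LAGI01_76393, a lipid phosphate phosphatase, the phosphatidic acid phosphatase family member LAGI01_92953, the MtN21 family member LAGI01_39882, the Sec14-like lipid transporter SFH12 LAGI01_49503 and the glycosyl hydrolase GH9C1 LAGI01_70621. Their mean levels were 1.63 to 5.43 RPKM in sufficient roots and 5.80 to 28.1 RPKM in deficient roots. As the likeness was measured over these same libraries, the root difference of the 10 follows from how they were chosen.

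**Figure D4:**
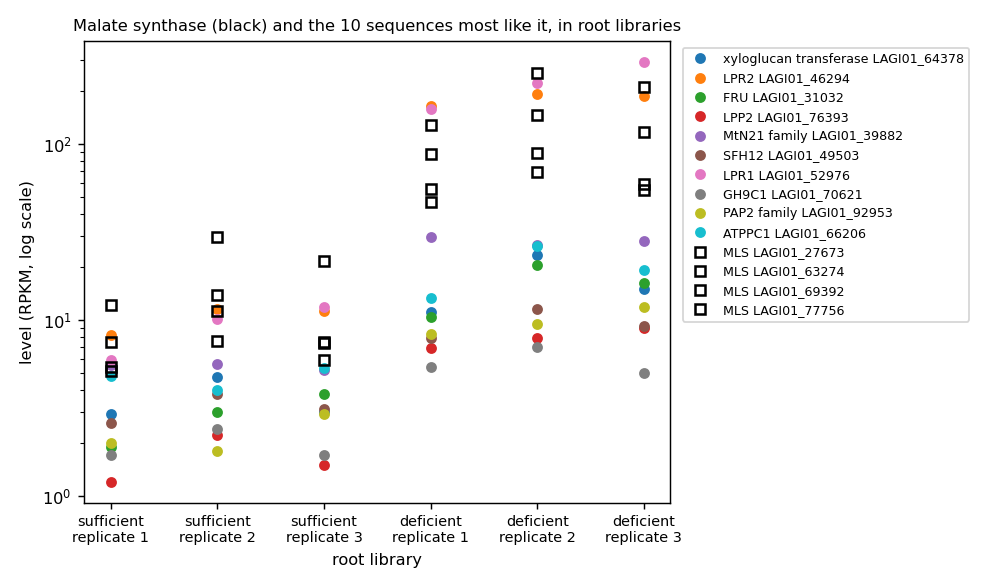
RPKM (log axis) of the 4 malate synthase sequences (black squares) and of the 10 sequences most like them over the 12 libraries (coloured points), in each of the 6 root libraries. Every sequence is higher in each deficient library than in each sufficient one, and malate synthase and the LPR sequences are the highest in the deficient libraries.

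2-isopropylmalate synthase, which shares words with malate synthase but belongs to leucine synthesis, differed from it in its distribution. Its 7 tested sequences summed to 35.8, 34.7 and 33.1 RPKM in sufficient roots and to 41.3, 27.1 and 28.7 RPKM in deficient roots, with single log2 differences of -0.38 to 0.22. In leaves they summed to 59.7, 70.6 and 60.1 RPKM and to 53.6, 67.4 and 25.0 RPKM. Limma called 0 of the 7 in leaves (adjusted p 0.64 to 1.0), with 1 at an unadjusted p below 0.05. Among all sequences tested in leaves, limma called 0.0276%, and 7.76% had an unadjusted p below 0.05.

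The copies of 2-isopropylmalate synthase were not all higher in the same tissue. At sufficient phosphorus LAGI01_18004 was lower in roots (4.6 ± 0.889 RPKM) than in leaves (13.9 ± 0.854 RPKM, SD, n = 3 each), at -1.51 on the log2 scale and a limma adjusted p of 0.00404. LAGI01_9911 differed by -1.40 (adjusted p 0.00724) and LAGI01_19761 by -1.41 (adjusted p 0.0104). The last of these was lost without sufficient leaf replicate 2 (adjusted p 0.0548). In the comparison at sufficient phosphorus 42.0% of all sequences tested were called, with 24.1% higher and 17.8% lower in roots, so such a call is common. With deficient phosphorus LAGI01_18004, LAGI01_9911 and LAGI01_19761 differed by -0.97, -0.85 and -0.79 and did not pass (limma adjusted p 0.05004, 0.087 and 0.138). There they passed after median-of-ratios scaling and without deficient leaf replicate 3. LAGI01_18004 also passed there with a filter of 5 RPKM, a pseudocount of 1 and the replicate block (limma adjusted p 0.0373, 0.0464 and 0.0354). It passed without deficient root replicate 1 as well (adjusted p 0.0363), but not in the other 13 of 19 alternatives.

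LAGI01_64397 lay the other way, at 5.23 ± 0.451 RPKM in sufficient roots and 2.00 ± 0.700 RPKM in sufficient leaves (SD, n = 3 each; log2 difference 1.24, limma adjusted p 0.0201). This call was lost without sufficient leaf replicate 3 and without sufficient root replicate 2 or 3 (adjusted p 0.106, 0.0687 and 0.0548). With deficient phosphorus LAGI01_64397 differed by 0.88 and did not pass (limma adjusted p 0.0887, or 0.0181 without deficient leaf replicate 2). At sufficient phosphorus LAGI01_23792 differed by 1.05 in the same direction with a limma adjusted p of 0.062. It passed under the replicate block (0.0417), after median-of-ratios scaling (0.0275) and without deficient leaf replicate 2 or 3 (0.0262 and 0.0291). In the other 15 of 19 alternatives it did not pass. LAGI01_27223 and LAGI01_55932 passed the filter through leaves alone, with at most 0.2 RPKM in roots and 0.4 to 5.0 RPKM in leaves. The 2 sequences below the filter, LAGI01_88060 and LAGI01_91619, had at most 1.3 RPKM in roots and at most 0.2 RPKM in leaves.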

How the data were processed

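Per the labels' protocols, poly-A RNA of 12 libraries was sequenced for 76 cycles in single reads, with filters on quality, homopolymers and read size. The submitters' processing notes name Bowtie, without a version or role. The deposited values, which have 1 decimal, were taken to be RPKM, a unit that the labels and files used here do not name. How the authors counted reads and assigned those that match several sequences is not given in the sources used here. The depth of the libraries is unknown, and 2 columns of the table are empty. Names come from the deposited annotation. No transcript sequences or genome positions were used here.

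The filter (1 RPKM in 3 libraries) left 69.37% of sequences. Group means of log2(RPKM + 0.5) for the 4 groups were compared with limma 3.58.1 (trend option, R 4.3.3) in 1 fit of all 12 libraries. Benjamini-Hochberg adjustment covered all 87081 sequences, with calls made below an adjusted p of 0.05. A fold on this scale understates the change of low sequences. The tests between tissues were added to the planned ones. The fit was also run on simulated normal values that were independent between libraries. These lack the shared deviations of same-numbered libraries, so that run says nothing on calls under such deviations. Python 3.11.15 was used for tables (pandas 2.3.3, numpy 2.4.6), exact tests (scipy 1.17.1) and figures (matplotlib 3.10.9).

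The members and lists were chosen with earlier results of these data known. Named genes are all members, the 2 sequences of each pathway list with the smallest p in roots and the 1 in leaves, and the 10 most like malate synthase, with 1 per description. Partner enzymes, the second AAE7 sequence and the enzymes summed were chosen after values were seen. Some named sequences are only listed here, although neither they nor the other named sequences of the lists passed in the planned comparison. The leaf log2 differences were 0.93 for LAGI01_78522, -1.37 for LAGI01_72361 (LACS8), -0.98 for LAGI01_72589, -0.95 for LAGI01_46458 and -0.98 for LAGI01_53619. Their limma adjusted p was 0.396 to 0.681. The root differences were 0.92 for LAGI01_77563 and -0.61 for LAGI01_54722. LAGI01_72361 passed in leaves with barcoded libraries only (limma adjusted p 0.0105).

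Same-numbered libraries of a tissue deviated together (correlation of deviations from the group means across sequences 0.399 to 0.751 in roots and 0.126 to 0.237 in leaves), and 2 root pairs of different number, among replicates 2 and 3, also reached 0.441 and 0.472, while replicate 1 was opposed to both (-0.706 to -0.496). Every same-numbered correlation was above 0.1, but so was that of deficient leaf replicate 3 with sufficient leaf replicate 2 (0.106). Whether the replicate numbers, which come from the labels, pair the samples is thus not settled by the correlations. The main fit and the exact tests took no account of such a pairing, and the block is an alternative. Other alternatives were pseudocounts of 0.1 and 1, no filter or one of 5 RPKM, median-of-ratios scaling, libraries of 1 tissue only, barcoded libraries only and leaving out each library.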

Additional observations from a re-analysis of the deposited data

How the results depend on the processing

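The median root difference of malate synthase, 3.16, lay between 2.93 and 3.40 over 20 alternatives. Malate synthase was chosen by these root values, so this range is a description and supports nothing further. Without a filter the median over all members was 0.00 for malate synthase in leaves, -0.62 for isocitrate lyase in roots and 0.00 for isocitrate lyase in leaves, since the low sequences enter; a pseudocount of 0.1 gave -0.33 for malate synthase in leaves (main -0.09). Leaving out 1 library moved the leaf difference of isocitrate lyase between -1.76 and -0.72. The root count of 243 calls among all sequences became 442 with barcoded libraries only, 145 with a filter of 5 RPKM, 58 with root libraries only, 423 after median-of-ratios scaling, 106 and 366 with pseudocounts of 0.1 and 1, and 113 to 347 when 1 library was left out. The leaf count of 24 became 5215, 5, 0 and 53 under the first 4 of these, 3 with no filter, 3 with a pseudocount of 0.1, and 0 to 1487 when 1 library was left out, 0 being without deficient leaf replicate 3, where limma gave 5119 at an unadjusted p below 0.05, and 1487 without sufficient leaf replicate 1. With the replicate block, the leaf count was 158 and the root count 317, and the block changed the call of no malate synthase or isocitrate lyase sequence in leaves. Isopropylmalate synthase LAGI01_64397 in leaves (0.06) turned to -0.33 without deficient leaf replicate 2 and to -0.20 without sufficient leaf replicate 3, and reached 0.43 without deficient leaf replicate 3. With barcoded libraries only, some sequences of the lists passed: 1, 2 and 2 in roots for the shared cycle enzymes (LAGI01_97630 among them, adjusted p 0.0294), beta-oxidation and succinate use (the last 2 passed the filter through sufficient libraries alone), and up to 14 per list in leaves (HPR LAGI01_89374 among them, adjusted p 0.0204). The cause of these changes was not tested. The unknown depth limits every value near 0.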

Other observations

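All 6 malate synthase and isocitrate lyase sequences below the filter had the same profile, with values only in root replicates 2 and 3 and the highest in sufficient roots of replicate 3. A search for this profile, with limits chosen after the values were seen (at least 2 RPKM in sufficient root replicate 3, a value above 0 and under 0.5 times that in sufficient root replicate 2, at most 0.1 RPKM in both root libraries of replicate 1 and at most 0.2 RPKM in leaves), found 347 sequences, the 6 included. Of the 347, 305 (87.9%) had no informative description, against 47.8% of all 125535 sequences. They included 2 PEP carboxykinases and 7 sequences described as ribosomal. Their summed levels were 1.9, 306.0 and 1076.1 RPKM in sufficient roots and 1.3, 101.1 and 203.5 RPKM in deficient roots. The source of these sequences was not tested.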
